A study of Mus musculus with 2 samples.

Results

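The genes described here are 4 keratins (Krt7, Krt8, Krt18 and Krt19), 2 uroplakins (Upk1b and Upk3b), mesothelin (Msln) and the membrane mucin Muc16, chosen by name as genes of surface epithelium and mesothelium, 8 of the 31057 genes in the deposited matrices. They were followed in single-cell RNA sequencing of whole ovaries from female CD1 mice at postnatal day 2 (P2). Each of the 2 libraries pooled 6 ovaries from 3 pups of a single mother, with no treatment and no genetic change, so the libraries are the replicates (n = 2) and the cells are not. The libraries held 4094 and 4847 cells with 54471790 and 59074480 unique molecular identifiers (UMIs, each standing for a captured transcript molecule), and 3642 and 4371 cells were kept. The libraries shared 21 cell barcodes.

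The ovary is covered by a single layer of surface epithelium that is continuous with the mesothelium of the body cavity, and pregranulosa cells, the somatic cells around the young oocytes, partly arise from that layer. Keratins are the intermediate filament proteins of epithelia, and a filament pairs a type II keratin (Krt7 and Krt8) with a type I keratin (Krt18 and Krt19). Uroplakins are membrane proteins best known from the bladder lining, where Upk1b is a tetraspanin that partners Upk3 proteins. Mesothelin is a GPI-anchored surface protein of mesothelium that binds the large mucin Muc16, also known as the antigen CA125.

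Krt8 (chr15:101996698-102004482, minus strand) and Krt18 (chr15:102028180-102032027, plus strand) are neighbours in GRCm38, transcribed away from each other with 23697 bases and 0 annotated genes between them. Krt7 lies on the same chromosome (chr15:101411043-101430313, plus strand) and Krt19 in the type I cluster (chr11:100140810-100148665, minus strand). Upk1b (chr16:38773184-38800328, minus strand), Upk3b (chr5:136038496-136046487, plus strand), Msln (chr17:25748613-25754378, minus strand) and Muc16 (chr9:18495455-18674530, minus strand) are on separate chromosomes. All 8 are protein-coding, and Krt7, Krt8 and Muc16 each overlap an annotated gene on the opposite strand. Of the 8 genes, 5 matched the RefSeq promoter table (Krt19, Upk1b and Msln did not). The neighbouring pair Krt8 and Krt18 was shared most with granulosa cells, and Upk3b was found almost wholly in surface cells. The bases before the first annotated exon are printed for these genes. They are RefSeq sequence of GRCm38.p6, 5′ to 3′ on the strand of the gene, at chr15:102004483-102004592 (minus strand), chr15:102027966-102028179 (plus strand) and chr5:136038246-136038495 (plus strand). Capitals mark the letters GATAA, the core of the motif of GATA factors, or their reverse complement.
Krt8: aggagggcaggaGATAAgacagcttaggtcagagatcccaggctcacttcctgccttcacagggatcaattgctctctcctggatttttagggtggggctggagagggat
Krt18: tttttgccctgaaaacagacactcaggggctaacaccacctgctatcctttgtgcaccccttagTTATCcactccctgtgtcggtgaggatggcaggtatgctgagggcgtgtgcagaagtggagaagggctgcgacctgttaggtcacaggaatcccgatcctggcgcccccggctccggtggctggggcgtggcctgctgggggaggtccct
Upk3b: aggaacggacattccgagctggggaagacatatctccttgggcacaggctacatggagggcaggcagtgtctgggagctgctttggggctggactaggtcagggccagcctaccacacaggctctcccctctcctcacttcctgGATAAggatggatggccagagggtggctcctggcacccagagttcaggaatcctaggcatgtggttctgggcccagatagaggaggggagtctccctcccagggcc
In the 250 bases before the RefSeq start site, GATAA on either strand was found once in each of the promoters of Krt8, Krt18, Upk3b and Muc16, at bases -238, -186, -106 and -124 from the start, and was not found in that of Krt7. It is present in 22.6% of 32851 promoters of the same length. The GC box GGGCGG, searched on both strands and present in 32.7% of promoters, was found 4 times in the window of Krt7 and in none of the other 4. That window (chr15:101412153-101412402) lies within the annotated span of Krt7 given above. Letters of the AP-1 motif (TGANTCA, in 6.75% of promoters) and of the TATA box (TATAAA, in 12.4%) were also searched. Neither was found in any of the 5. Letters of the TEAD motif (GGAATG, in 12.6%) were found once, in Upk3b at base -241, and are not capitalized above. For Muc16 the bases after the start site did not match its transcript, so its position carries that limit. These matches describe letters in a window and no binding was measured.

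Cells were typed by gates on UMIs of genes that are not among the 8. A mesothelial cell had Lrrn4 or Gpm6a, a granulosa cell Foxl2, Fst or Inha, and an interstitial cell Col1a2 or Dcn. A germ cell had Ddx4, Dazl or Ooep and an endothelial cell Cdh5, and cells past several gates were left out. The granulosa gate does not separate pregranulosa cells from granulosa cells of growing follicles, which carry Amh and Inhbb. The mesothelial gate passed 10 and 24 cells in libraries 1 and 2, the granulosa gate 1634 and 570, the interstitial gate 1195 and 2020, the germ gate 229 and 591, and the endothelial gate 57 and 25. The mesothelial gate is narrow, because its genes are sparse. All 34 of its cells fell into a single cluster of 189 and 307 cells when all kept cells were clustered without the 8 genes and the gate genes. This cluster is called the surface cluster. It also held 86 cells past the granulosa gate, 59 past the interstitial gate and 10 past the germ gate, while 272 of its cells passed no gate. Its summed level of the 10 mesothelial check genes, which served no gate, was 2166 and 2075 CPM (UMIs of the genes per 1000000 UMIs of the cells summed). The sum was 776 and 1122 in the granulosa clusters and 113 to 450 elsewhere. Wt1 gave the largest part, 673 and 635, and had 468 and 528 in the granulosa clusters. Nkain4 went the other way, with 11.6 and 24.2 against 65.9 and 55.1 in the interstitial clusters. Calb2, a marker of adult mesothelium, had 0.00 and 0.44 CPM. Levels are given below for gated cells, which the tests use, and for clusters, which hold more surface cells but are no test, since genes that vary with the 8 helped to form them.

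All 8 genes were higher in mesothelial than in granulosa cells in both libraries, and the keratins of the neighbouring pair differed least. Levels are in CPM, for libraries 1 and 2 in that order. Krt8 stood at 550 and 578 in mesothelial cells, 113 and 193 in granulosa, 23.3 and 40.8 in interstitial, 1.58 and 6.19 in germ, and 1.08 and 0 in endothelial cells. Krt18, its type I partner, stood at 1077 and 981 in mesothelial, 77.2 and 256 in granulosa, 33.4 and 65.9 in interstitial, 2.31 and 7.76 in germ, and 1.08 and 0 in endothelial cells. Both genes were thus detected in cells of other gates, with granulosa cells next in order. Library 2 was above library 1 in granulosa, interstitial and germ cells. Of the interstitial-gated UMIs, 95.3% for Krt8 and 95.4% for Krt18 came from cells in the surface cluster. In granulosa-gated cells these shares were 21.8% and 43.8%.

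Krt7, a keratin of simple and glandular epithelia, had 301 and 269 CPM in mesothelial, 12.0 and 37.8 in granulosa, 5.71 and 12.7 in interstitial, and 1.03 and 1.65 in germ cells, and no UMI in endothelial cells. Krt19, the smallest keratin, had 617 and 519 in mesothelial, 24.7 and 61.0 in granulosa, 33.3 and 42.3 in interstitial, 0.55 and 2.63 in germ, and 2.17 and 6.71 in endothelial cells. Across the libraries, gated granulosa and interstitial cells overlapped for Krt19 and narrowly for Krt7, but not for Krt18 or Krt8. By cluster neither gene overlapped. Krt19 then had 5.56 and 12.5 in granulosa against 1.14 and 1.74 in interstitial clusters, and Krt7 7.23 and 22.6 against 0.38 and 0.68. Within each library Krt7 was higher in granulosa cells. The endothelial value of Krt19 rests on 2 UMIs in each library.

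Upk3b had 761 and 634 CPM in mesothelial cells, 15.5 and 51.3 in granulosa, 12.8 and 27.9 in interstitial and 0.12 and 2.46 in germ cells. Upk1b had 37.7 and 29.9 in mesothelial cells, resting on 5 and 8 UMIs, 0.61 and 1.30 in granulosa, 0.68 and 1.07 in interstitial, and 0.55 and 1.31 in germ cells. Both uroplakins were thus far higher in mesothelial cells than in any other type. Msln had 113 and 70.9 in mesothelial, 3.40 and 9.21 in granulosa, 3.31 and 4.53 in interstitial, and 0.12 and 0.38 in germ cells. Muc16 had 82.8 and 26.1 in mesothelial cells, resting on 11 and 7 UMIs, 2.59 and 6.49 in granulosa, 1.48 and 2.39 in interstitial, and 0.06 and 0.34 in germ cells. These 4 genes had 0 UMIs in endothelial cells of both libraries, and in none of them did a mesothelial value overlap a value of another type.

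**Figure D1:**
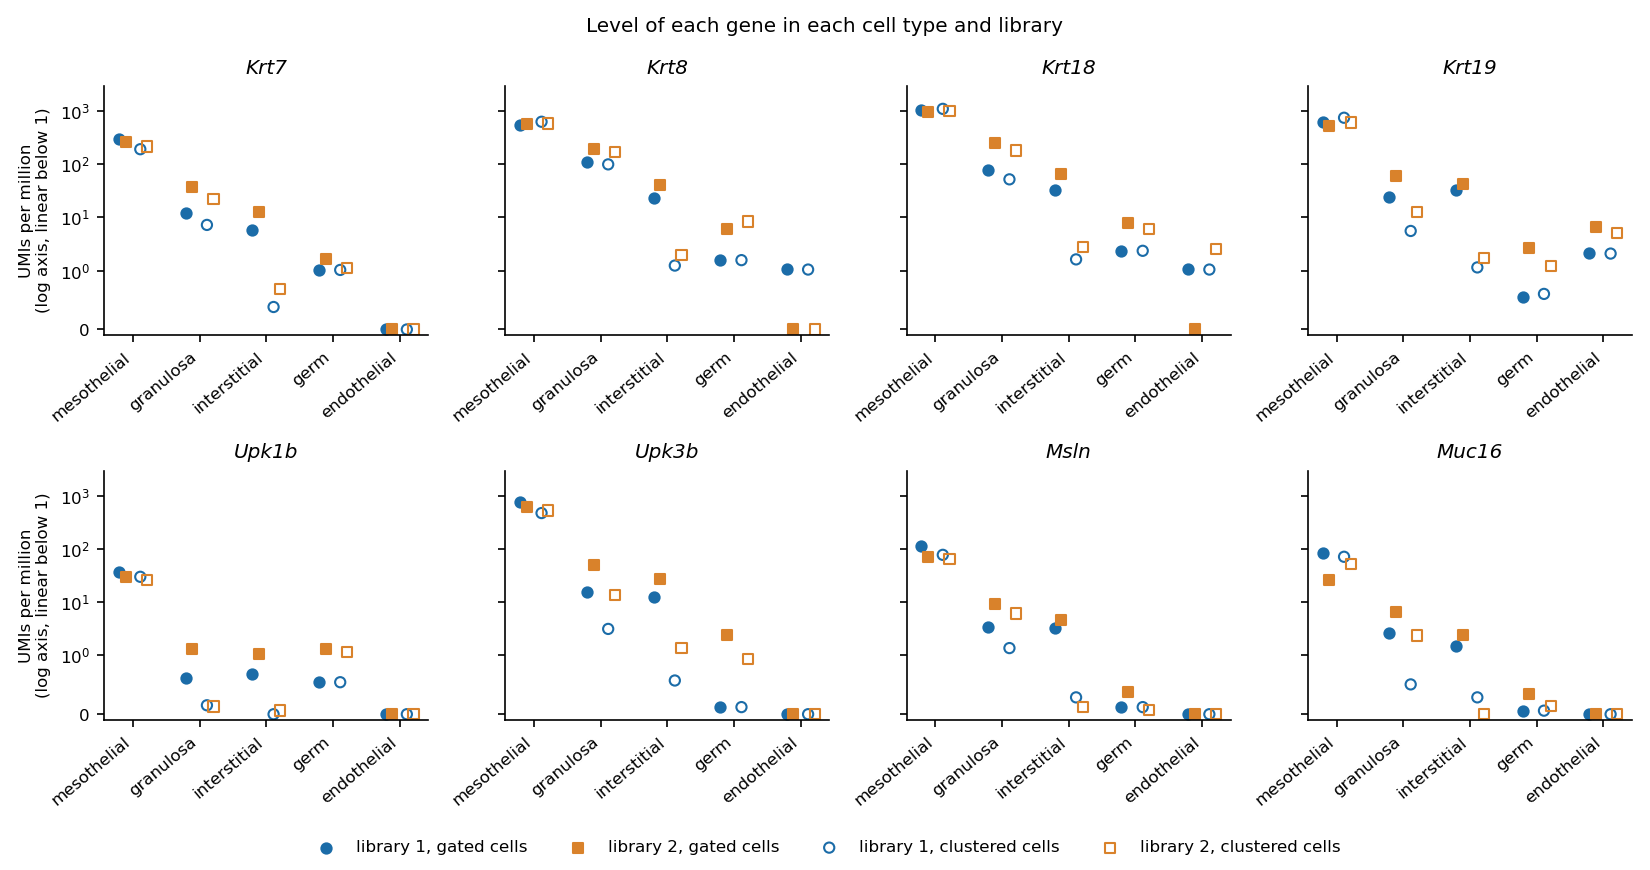
Level of each gene in CPM (log axis, linear below 1) in the 5 cell types, with circles for library 1 and squares for library 2, filled for gated and open for clustered cells. All mesothelial points lie above those of the other types, and Krt8 in granulosa cells (113 and 193 when gated) comes nearest.

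Sums of UMIs per library and type were compared with edgeR's quasi-likelihood test over 14787 genes with Benjamini-Hochberg adjustment, and a gene was called at an adjusted p under 0.05 and a difference over 2-fold. Against granulosa cells, 8 of the 8 genes were called higher in mesothelial cells, where 2.19% of all genes tested were called higher. The log2 difference was 1.82 (SE 0.44, adjusted p = 0.0253) for Krt8 and 2.56 (SE 0.53, adjusted p = 0.0114) for Krt18. It was 3.48 (SE 0.52, adjusted p = 0.0015) for Krt7 and 3.67 (SE 0.46, adjusted p = 3.29e-04) for Krt19. Upk3b differed by 4.34 (SE 0.64, adjusted p = 0.00147), Upk1b by 5.15 (SE 0.80, adjusted p = 0.00195), Msln by 3.79 (SE 0.59, adjusted p = 0.00201) and Muc16 by 3.41 (SE 0.77, adjusted p = 0.0204). The median over the 8 genes was 3.57, beside -0.30 over all genes tested, so all differences stand against a table whose median was slightly negative. The calls rest on few cells. Without the mesothelial sum of library 1, 5 of the 8 were called, and without that of library 2, 1 was called (Krt19), with the lone sum assumed to vary as the other types do. With cells past several gates assigned to the gate they exceeded most, 6 were called, and Krt8 (edgeR adjusted p = 0.125) and Muc16 (adjusted p = 0.0503) were not. With cells thinned to 2000 UMIs, 7 could be tested and 6 were called (not Muc16).

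Against the other types the 8 genes were again higher throughout. All 8 were called against interstitial cells (4.44% of all genes), where the log2 difference ran from 3.77 for Krt19 to 5.06 for Upk1b and its median was 4.43, beside -0.34 over all genes. All 8 were called against germ cells (16.1% of all genes), with differences from 4.92 for Upk1b to 8.74 for Upk3b and a median of 7.53, beside -0.58. With either mesothelial sum left out, 7 of the 8 were called against interstitial cells and 8 against germ cells. All 8 were called against endothelial cells (5.17% of all genes) and against the mean of the other 4 types (5.21%). For genes with no endothelial UMI the fitted difference depends on the prior count, so bounds are given instead. With a floor of 3 UMIs over the endothelial cells, Upk3b was at least 275-fold, Krt7 at least 114-fold, Msln at least 34.5-fold, Muc16 at least 18.3-fold and Upk1b at least 13.2-fold higher in mesothelial cells. Krt8 and Krt18 had 1 endothelial UMI each, giving ratios of 695 (95% counting interval 123 to 27560) and 1237 (221 to 48984).

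The gated cells of other types include cells of the surface cluster, and the 8 genes differ in how much of their signal that brings. Of the UMIs of Krt8 in granulosa-gated cells, 21.8% came from cells that lie in the surface cluster. The share was 43.8% for Krt18 and 50.2% for Krt7, and it was 65.9% for Msln, 81.2% for Muc16, 84.9% for Upk3b, 85.3% for Krt19 and 90.9% for Upk1b. In interstitial-gated cells, 92.9% to 96.6% of the UMIs of each of the 8 genes came from the 59 cells in the surface cluster. Where only gated cells whose cluster had the same type were kept, the log2 difference between mesothelial and granulosa cells was 2.12 (SE 0.32) for Krt8, 3.29 (SE 0.43) for Krt18 and 4.40 (SE 0.46) for Krt7, and 6.49 (SE 0.35) for Krt19, 7.17 (SE 0.52) for Upk3b, 8.46 (SE 1.02) for Upk1b, 5.26 (SE 0.74) for Msln and 5.75 (SE 0.93) for Muc16. Leaving out the surface cluster's cells from the granulosa sum makes a larger difference by construction, and this way of typing was chosen after the gates had been seen, so these values are a description.

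**Figure D2:**
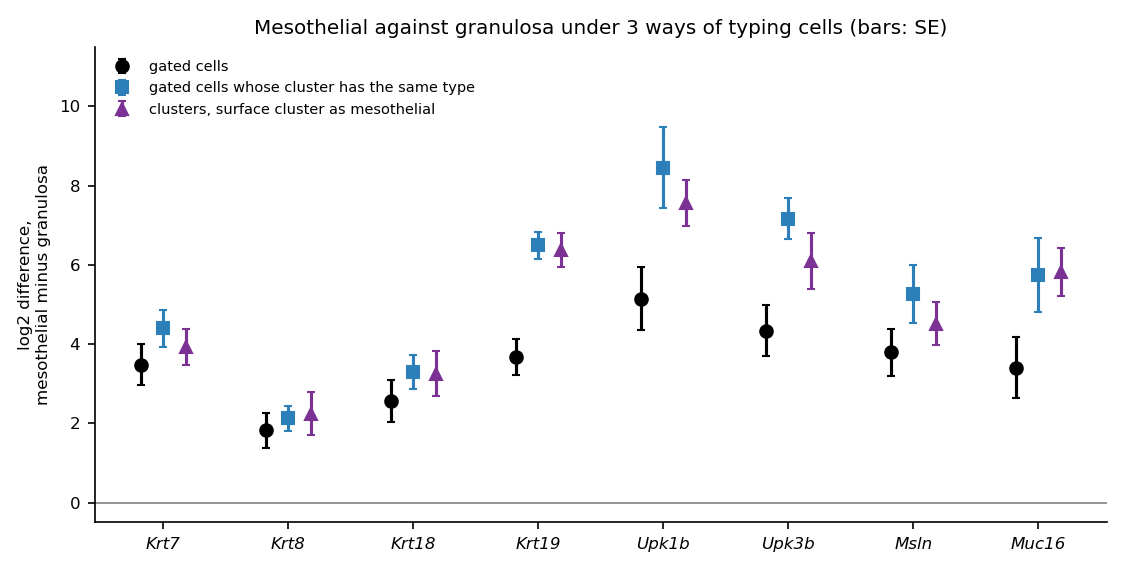
Difference between mesothelial and granulosa cells on the log2 scale (bars, SE of edgeR's fit over 2 libraries) for gated cells, gated cells whose cluster has the same type, and clusters. Krt8 stayed between 1.82 and 2.24, while Krt19 went from 3.67 to 6.49 and Upk3b from 4.34 to 7.17.

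By cluster, the share of a gene's UMIs in the surface cluster formed a gradient from 94.6% to 56.8% over the 8 genes. These shares also depend on how many cells of each type were captured. Over both libraries, the surface cluster, 189 and 307 of the 8013 kept cells, held 94.6% of all UMIs of Krt19, 94.6% of those of Upk3b and 92.9% of those of Muc16. It held 86.7% for Msln, 82.4% for Upk1b and 81.0% for Krt7. For Krt18 it held 75.2% and for Krt8 56.8%, with 22.3% and 39.5% in the granulosa clusters. Krt8 was thus the most evenly divided between surface and granulosa cells, and Krt19, Upk3b and Muc16 lay almost wholly in the surface cluster. Of the UMIs of Upk1b, 15.6% lay in germ clusters and 1.5% in granulosa clusters. The libraries differed for some genes. The surface cluster held 50.1% and 63.0% of the UMIs of Krt8 in libraries 1 and 2, and 88.9% and 77.9% of those of Upk1b, whose germ clusters held 8.33% and 20.8%. For Krt7 it held 79.0% and 82.2%, so Krt7 and Upk1b changed order between the libraries.

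**Figure D3:**
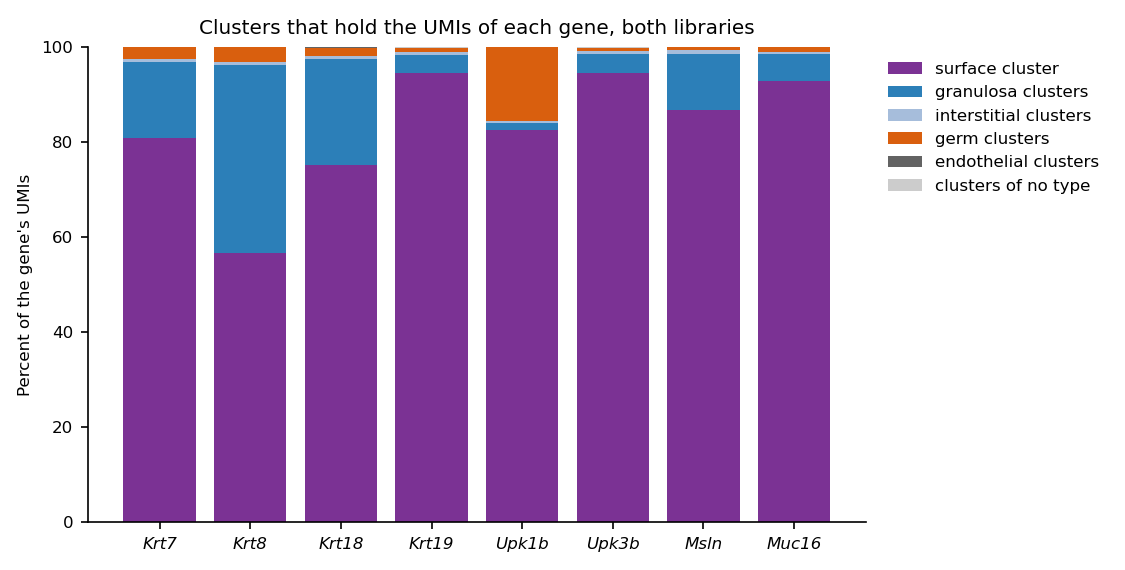
Percent of each gene's UMIs (both libraries) found in the surface cluster and in the clusters of each other type. The granulosa clusters held 39.5% for Krt8 and 22.3% for Krt18 but 4.0% for Upk3b and 3.7% for Krt19, and germ clusters held 15.6% for Upk1b.

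Within the surface cluster the 4 keratins and Upk3b were detected in most cells, Muc16 and Msln in fewer, and Upk1b in a minority. Krt18 had at least 1 UMI in 99.5% of 189 cells (95% exact binomial interval 97.1 to 100) and 97.7% of 307 cells (95.4 to 99.1), Krt8 in 99.5% and 95.8%, Krt19 in 95.8% and 92.8%, and Krt7 in 79.9% and 79.5%. Upk3b was detected in 94.2% (89.8 to 97.1) and 91.2% (87.5 to 94.1), Muc16 in 56.6% and 43.6%, Msln in 55.0% and 45.3%, and Upk1b in 29.6% and 23.5%. The median cell had 6 of the 8 genes in both libraries, and 75.7% and 72.6% of cells had all 4 keratins. With every cell thinned to 2000 UMIs, which left out 7 cells of library 2, the cells with all 4 keratins fell to 16.4% and 14.0%, and Krt18 remained detected in 86.2% and 80.3%, Upk3b in 56.6% and 63.3% and Upk1b in 3.70% and 5%. Intervals cover counting error only.

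Per cell, the median of Krt18 in the surface cluster was 15 UMIs in library 1 and 10 in library 2, with quartiles of 9 and 23 and of 5 and 21. The medians were 9 and 6 for Krt8, 9 and 6 for Krt19, 7 and 6 for Upk3b and 2 and 2 for Krt7. Cells of the surface cluster in which at least 2 of 10 cell cycle genes had a UMI after thinning, 49 and 118 cells, had 122 and 195 CPM of Krt7 against 227 and 232 in the other thinned cells, 949 and 939 of Krt18 against 1191 and 1060, and 447 and 461 of Upk3b against 494 and 584. Msln was also lower in both libraries, at 76.6 and 56.8 against 78.8 and 68.7. The other 4 genes went in opposite directions in the libraries, with Krt8 at 590 and 604 against 658 and 581 and Krt19 at 641 and 616 against 812 and 601. The cycling cells were also deeper, with medians of 17616 and 11622 UMIs against 10870 and 10301, and the part of depth in these differences was not tested.

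Shares of granulosa cells with a UMI were highest for Krt8 and Krt18, but such shares rise with the level of a gene. With levels taken against the surface cluster, Krt7 came next after these keratins. With UMIs of both libraries pooled, the surface cluster stood 5.07-fold above the granulosa clusters for Krt8 and 11.9-fold for Krt18. It stood 18.0-fold above them for Krt7, 25.9-fold for Msln and more for the others. The gap was narrower in library 2 for Krt8, Krt18, Krt7 and Msln. Granulosa clusters had 100 and 172 CPM of Krt8, 52.2 and 182 of Krt18, 7.23 and 22.6 of Krt7 and 1.37 and 6.13 of Msln. The surface cluster had 636 and 590, 1113 and 1014, 193 and 218, and 78.1 and 64.1 in the same order. In the granulosa clusters Krt8 was detected in 51.2% of 1662 cells (48.8 to 53.6) and 64.4% of 621 cells (60.5 to 68.2), and Krt18 in 25.3% and 51.0%. Krt7 was detected in 5.42% and 19.8%, Krt19 in 3.49% and 6.44%, Upk3b in 2.11% and 6.76%, Msln in 1.44% and 5.8%, Muc16 in 0.60% and 2.58% and Upk1b in 0.18% and 0.16%. The source of the few counts in interstitial clusters, such as RNA from other cells or misplaced surface cells, was not tested. There Krt8 was in 0.62% and 0.86% of cells, Krt18 in 0.83% and 1.45%, Krt19 in 0.55% and 1.02%, Upk3b in 0.41% and 0.71% and Krt7 in 0.28% and 0.43%, at median depths of 6450.5 and 4985 UMIs against 9817.5 and 8937 in the granulosa clusters. After thinning, Krt8 was in 17.3% and 30% of granulosa cells and in 0.28% and 0.36% of interstitial cells. Upk1b in granulosa clusters rests on 3 and 1 UMIs and was not read further.

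Granulosa cells were also compared with the mean of interstitial, germ and endothelial cells. There 7 of the 8 genes were called higher in the edgeR fit, where 19.1% of all genes were, and Upk1b was not (adjusted p = 0.449, Benjamini-Hochberg). Krt8 differed by 4.93 on the log2 scale (SE 0.43, adjusted p = 4.91e-07), Krt18 by 4.72 (SE 0.54, adjusted p = 6.63e-06) and Krt19 by 2.74 (SE 0.43, adjusted p = 1.30e-04), with 1, 1 and 4 UMIs in endothelial cells. For Krt7, Upk3b, Msln and Muc16, which had none there, the size of the difference depends on the prior count. With other gate thresholds, of 0.5 UMIs per 10000 for the mesothelial, 5 for the granulosa and 10 for the interstitial gate, which were changed together, 3 of the 8 were called, and these were Krt7, Krt8 and Krt18. Krt19 then differed by 0.46 (SE 0.65, edgeR adjusted p = 0.634). With clusters Krt19 differed by 2.34 (SE 0.40), and in gated cells whose cluster had the same type by 1.85 (SE 0.36). Both of these ways of typing take the surface cluster's cells out of the other sums. They were chosen after seeing the data, so these values are a description and are no test.

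Granulosa cells, here with those of growing follicles, were not uniform for these genes. They fell into 6 clusters, and the cluster of 168 and 262 cells led by Pglyrp1, H19 and Ly6d had the highest level of each of the 8 genes in both libraries. It had 260 and 327 CPM of Krt8, 314 and 416 of Krt18, 49.9 and 49.1 of Krt7 and 41.8 and 31.0 of Krt19. It had 20.9 and 32.8 of Upk3b, 10.5 and 15.2 of Msln, 4.1 and 4.7 of Muc16, and 0.58 and 0.36 of Upk1b, from 1 UMI in each library. The surface cluster had 636 and 590 of Krt8, 1113 and 1014 of Krt18, 193 and 218 of Krt7, 757 and 613 of Krt19 and 478 and 536 of Upk3b. Krt8 and Krt18 in the Pglyrp1 cluster therefore came closest to the surface, and Krt19 and Upk3b remained far below it. Krt18 is itself among the 10 leading genes of this cluster, so these values are a description. Pglyrp1 also ranked 4 among the leading genes of the surface cluster. The Pglyrp1 cluster had 6.63 granulosa gate UMIs per 10000, against 9.17 to 29.4 in the other granulosa clusters and 1.33 in the surface cluster. Its mesothelial gate UMIs were 0.049 per 10000, against 0.83 in the surface cluster.

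In the other 5 granulosa clusters Krt8 ran from 59.2 to 108 CPM in library 1 and from 23.4 to 148 in library 2. The lowest value in both libraries was in the cluster led by Hsd3b1 and Amh, the gene of anti-Müllerian hormone made by growing follicles. Krt18 ran from 14.4 to 77.9 and from 16.5 to 127, and its highest value in both libraries was in the cluster led by globin genes and Cxcl2. The globin transcripts that lead that cluster are markers of red blood cells, and their part in its keratin level was not tested. Krt19 had at most 3.0 in library 1 and 12.7 in library 2, Msln at most 1.0 and 3.4, and Upk1b 0.27 and 0. The clusters differ between the libraries in size, with 467 and 24 cells in the one led by Serpina1a and Serpina1b.

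**Figure D4:**
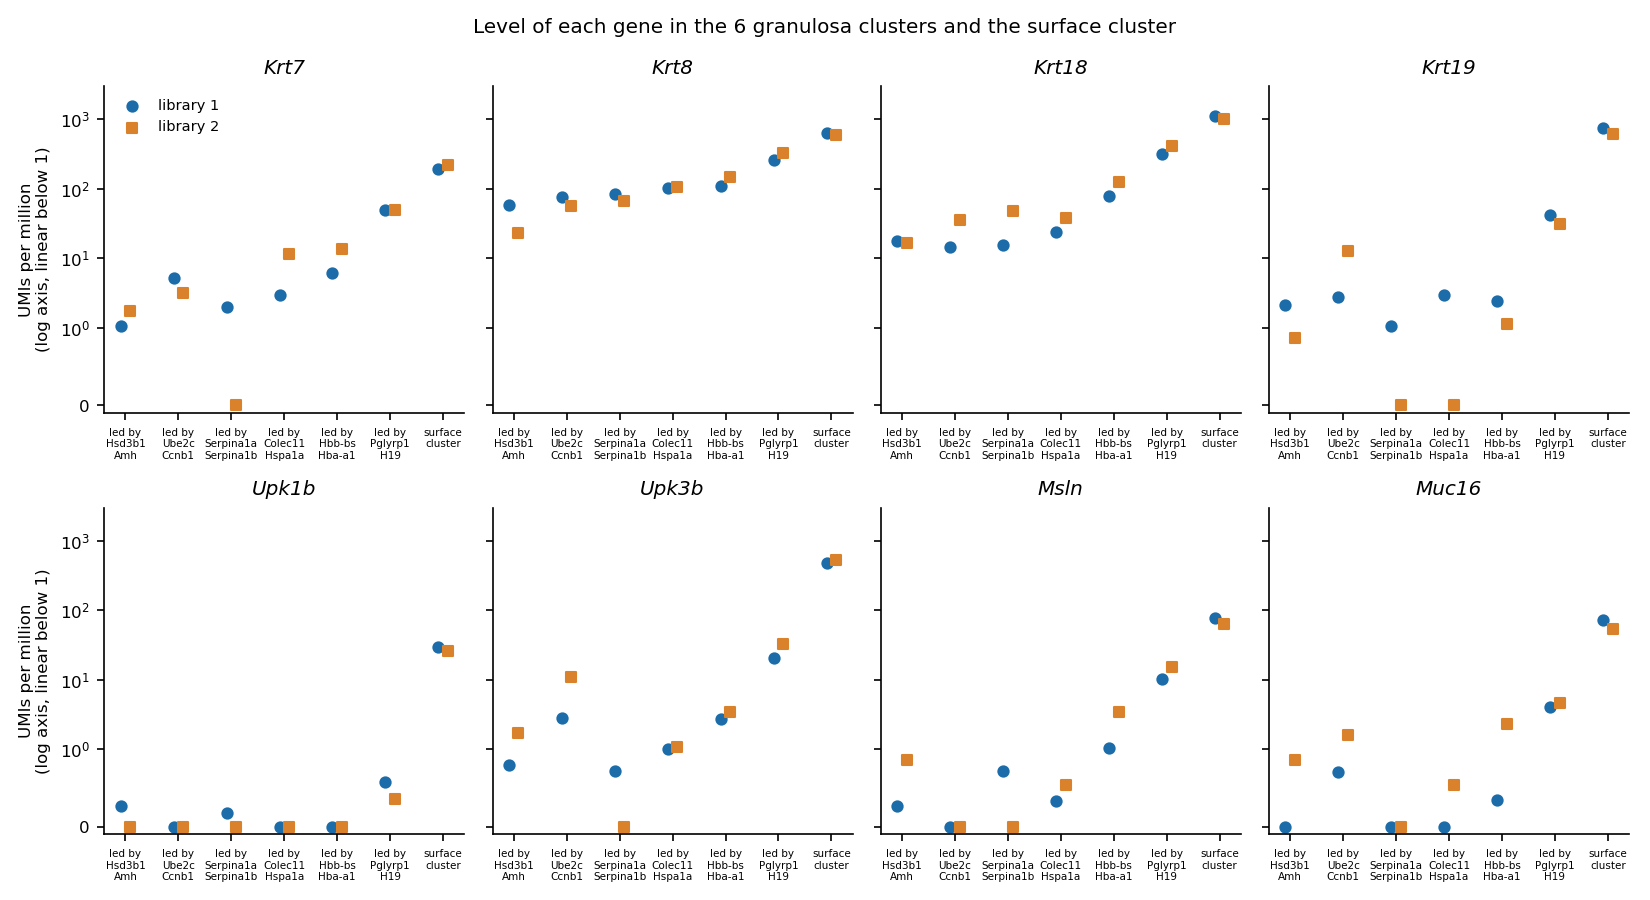
Level of each gene in CPM (log axis, linear below 1) in the 6 granulosa clusters, named by 2 leading genes, and in the surface cluster, by library. The Pglyrp1 cluster is the nearest to the surface cluster for Krt8 (260 and 327 against 636 and 590), and Upk1b is at or near 0 in all granulosa clusters.

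The ratio of Krt8 to Krt18 changed from surface to granulosa cells. The surface cluster had 0.571 Krt8 UMIs per Krt18 UMI in library 1 (95% exact counting interval 0.541 to 0.603) and 0.582 in library 2 (0.555 to 0.611). The granulosa clusters had 1.91 (1.78 to 2.07) and 0.945 (0.876 to 1.02), so Krt8 over Krt18 was higher there in both libraries, and the libraries themselves differed. The pooled value weighs the clusters by their counts. The Pglyrp1 cluster, 168 of 1662 and 262 of 621 of these cells, held 540 of 1033 and 1154 of 1394 Krt18 UMIs. The part of this mix in the difference between the libraries was not tested. In the Pglyrp1 cluster the ratio was 0.830 (0.730 to 0.942) and 0.784 (0.718 to 0.856), and in the Colec11 cluster 4.31 (3.32 to 5.64) and 2.81 (2.13 to 3.76). In the Serpina1a cluster it was 5.43 (4.31 to 6.90) in library 1 and 1.42 (0.761 to 2.70) in library 2, where it rests on 27 and 19 UMIs. In the interstitial clusters it was 0.765 (0.342 to 1.67) and 0.711 (0.437 to 1.14), resting on 13 and 32 UMIs of Krt8. These wide intervals hold the ratios of the surface cluster and of the Pglyrp1 cluster alike. In the germ clusters it was 0.667 (0.390 to 1.12) and 1.40 (1.14 to 1.72). The granulosa ratio was above that of the surface cluster beyond counting error in both libraries.

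**Figure D5:**
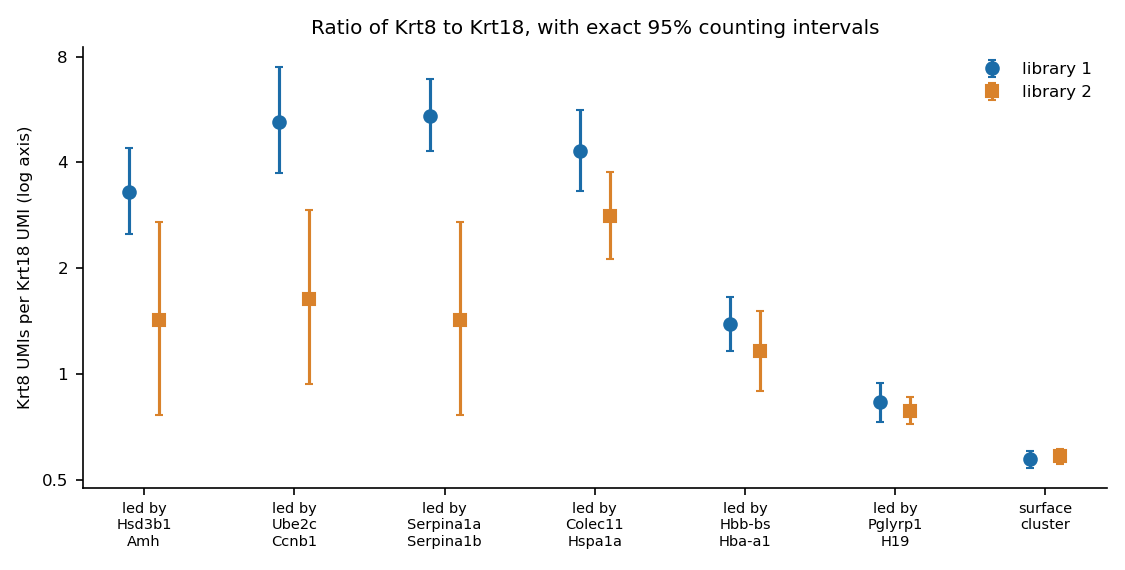
Krt8 UMIs per Krt18 UMI (log axis) in the 6 granulosa clusters and the surface cluster, by library, with exact 95% counting intervals. The ratio was 0.571 and 0.582 in the surface cluster and 4.31 and 2.81 in the cluster led by Colec11. In the clusters led by Ube2c, Serpina1a and Hsd3b1 it was 5.22, 5.43 and 3.30 in library 1. In library 2 it was 1.64, 1.42 and 1.42 there, on 22, 19 and 19 Krt18 UMIs.

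Granulosa-gated cells were split by Amh and Inhbb, genes of growing follicles, and by Lgr5, a receptor for R-spondins found at the ovarian surface. Cells with at least 2 UMIs of Amh and Inhbb together (535 and 118 cells) had 79.5 and 86.0 CPM of Krt8, cells with Lgr5 but not these (111 and 99) had 324 and 353, and the remaining cells (988 and 353) had 105 and 179. Krt18 had 23.9 and 98.1, 429 and 624, and 64.1 and 175 in the same order. The order was the same in both libraries for both keratins, with the Lgr5-positive cells highest. Of the 8 genes, 1 was called lower in Amh/Inhbb-positive cells than in the mean of the other granulosa cells (3.2% of 11443 genes were called lower), and it was Krt8, with a log2 difference of -1.39 (SE 0.23, edgeR adjusted p = 0.0114). The other 7 had log2 differences from -2.38 to -1.70 (edgeR adjusted p from 0.0751 to 0.299), and the median over the 8 was -1.97, beside -0.00334 over all genes. In library 2, 5 Amh/Inhbb-positive cells lay in the surface cluster and carried 38.2% of the Krt8 UMIs of that group, and in library 1 none did. With library as a replicate block, 6 of the 8 were called lower, and without the Amh/Inhbb-positive sum of library 1 none was (without that of library 2, 3 were).

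Lgr5-positive cells had 4.52 on the log2 scale more Krt19 (SE 0.86) and 4.52 more Muc16 (SE 0.84) than the remaining cells, 4.31 more Upk1b (SE 0.85), 4.08 more Upk3b (SE 0.84), 3.47 more Msln (SE 0.73), 2.57 more Krt7 (SE 0.70), 2.18 more Krt18 (SE 0.67) and 1.28 more Krt8 (SE 0.25). By edgeR's quasi-likelihood test 0 of the 8 were called, beside 0.0175% of all genes, and adjusted p ran from 0.0837 to 0.214. At an unadjusted p under 0.05 all 8 passed, as did 1436 of 11443 genes, and DESeq2 called 4 (Krt8, Krt19, Msln and Muc16). With library as a replicate block all 8 were called, with adjusted p from 4.76e-06 to 0.00545 in edgeR. The Lgr5-positive cells hold many cells of the surface cluster, 29 of 111 and 35 of 99, and these carried 91.7% and 94.3% of the Krt19 UMIs and 61.7% and 54.8% of the Krt8 UMIs of that group. Among cells whose cluster was granulosa, the median log2 difference of the genes tested was 1.71 in place of 3.78, and 0 were called.

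Germ cells had low levels of all 8 genes at great depth, with median totals of 77518 and 46121 UMIs per gated cell. Upk1b had 9 and 31 UMIs there, in 3.49% and 4.74% of cells. Over both libraries, 2.5% of these UMIs (1 of 40) came from cells in the surface cluster. The share was 58.3% (35 of 60) for Upk3b and 63.6% (7 of 11) for Msln. These shares come from library 2 alone. In library 1 the surface cluster held 0 of these UMIs for all of them, with 2 UMIs each of Upk3b and Msln. The germ clusters had 0.231 Upk1b UMIs per Krt18 UMI (0.0983 to 0.484) and 0.193 (0.128 to 0.283), whereas the surface cluster had 0.0270 (0.0218 to 0.0331) and 0.0258 (0.0213 to 0.0309). The intervals do not overlap, so the Upk1b counts of germ cells are not in the proportion of the surface cluster. The level remained small, 0.54 and 1.16 CPM in germ clusters, and after thinning 0.44% and 0.68% of cells had a UMI.

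Other genes of the same families and of epithelial junctions were read from lists. Of 22 other keratins, 8 could be tested, and in mesothelial against granulosa cells 1 was higher (Krt15, edgeR adjusted p = 0.0454) and 1 lower (Krt79, log2 difference -5.71, SE 0.46, adjusted p = 1.69e-05). Their median was -0.65, beside -0.30 over all genes. Krt79 had 247 and 273 CPM in the granulosa clusters against 14.7 and 20.5 in the surface cluster, the reverse of the 4 keratins above. The call of Krt15 rests on the 10 and 24 gated mesothelial cells, a small part of the surface cluster. That whole cluster had 14 and 11 UMIs of Krt15, and the granulosa clusters had 0. Krt15 was also present in germ clusters (6.27 and 6.37 CPM) at or above the surface cluster (4.39 and 2.40). Krt14 and Krt17, not called against granulosa cells, were highest in the surface cluster in both libraries. Krt14 had 9.41 and 15.05 CPM there, 0 and 0.522 in granulosa clusters and at most 0.095 in interstitial, germ and endothelial clusters. Krt17 had 8.78 and 29.88 there, 0.303 and 0.261 in granulosa clusters and 1.93 and 2.75 in germ clusters. In endothelial clusters Krt17 had 0 and 5.09, the latter from 2 UMIs. Against the mean of the other 4 types none of the 8 tested keratins was called, with a median of 1.60, and at granulosa against the 3 remaining types 3 were higher (Krt1, Krt20 and Krt79, of which Krt1 and Krt20 were named after their values were seen). Of 12 other uroplakins, mucins and mesothelin relatives, 5 could be tested and none was called for mesothelial cells (medians -4.01 against the mean of 4 types and -3.06 against granulosa cells). Upk3a was called higher in granulosa cells than in the mean of the 3 remaining types. It had 1.82 and 1.83 CPM in the granulosa clusters beside 1.75 and 1.30 in the germ clusters, with no UMI in the endothelial clusters. The call thus does not set granulosa cells apart from germ cells.

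Of 24 junction and keratin linker genes, 22 could be tested, and 7 were higher in mesothelial cells than in the mean of the other 4 types with none lower (31.8% of those tested beside 5.21% of all genes, median 1.99 beside -0.29). Cldn15, a claudin of tight junctions, had a log2 difference of 5.59 (SE 0.52, edgeR adjusted p = 9.30e-06). The desmosomal cadherins Dsc2 and Dsg2 and the adhesion molecule Epcam were also called (adjusted p = 0.0146, 0.0237 and 0.00206 in edgeR), with no UMI in the endothelial clusters. Dsc2 had 14.7 and 12.2 CPM in the surface cluster and 6.62 and 10.3 in the granulosa clusters, and Dsg2 7.52 and 5.23 against 12.0 and 12.0. Against granulosa cells 3 were higher, Cldn15, Epcam and Ctnna1 (13.6% beside 2.19%, median 0.54), and granulosa cells against the 3 remaining types had 8 higher (36.4% beside 19.1%), Dsg2 and Dsc2 among them, and 2 lower. Dsc2 and Dsg2 were thus called in both of these contrasts with other types, as were 7 of the 8 genes (all but Upk1b), but not against granulosa cells. Epcam was as high in germ clusters (191 and 187 CPM) as in the surface cluster (189 and 222). F11r and Ctnna1, also called against the mean of the 4 types, were higher in the endothelial clusters. F11r had 189 and 211 CPM there against 176 and 152 in the surface cluster. Ctnna1 had 181 and 147 against 144 and 129. Plec, also called, was higher in endothelial clusters in library 1 and in the surface cluster in library 2. Of the 7, only Cldn15 and Dsc2 were thus highest in the surface cluster in both libraries. Ppl, Evpl, Cldn3 and Dsp, not among the 7, were also highest there in both libraries, and the rest of the list was not. Ppl had 21.6 and 14.0 CPM there against 1.16 and 4.83 in the granulosa clusters. Of the 10 mesothelial check genes, 9 were tested and 8 were higher in mesothelial cells than in the mean of the 4 types (median 5.21, beside 5.21% of all genes called). The tested gene not called there was Nkain4. Against granulosa cells 5 were higher (median 2.36, beside 2.19%). In granulosa cells 6 were higher than in the 3 remaining types (beside 19.1%), and Nkain4 was lower.

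Summed markers of other cells were read in the surface cluster. The 5 immune genes stood at 5.0 CPM in both libraries, above the granulosa (0.76 and 1.17), interstitial (1.52 and 1.99) and germ clusters (0.60 and 1.20). Perivascular genes summed to 3.8 and 6.1, and erythroid genes to 20.4 and 54.7 against 133 and 57.3 in the granulosa clusters. Granulosa gate genes summed to 124 and 140 against 1927 and 1487 in the granulosa clusters, and interstitial gate genes to 279 and 316 against 5763 and 6228 in the interstitial clusters and 74.9 and 100.9 in the granulosa clusters. Their part in the levels of the 8 genes was not tested. The list of rete and oviduct epithelium stood at 193 and 236, of which Epcam was most, while Pax8 had 0.63 and 11.6, Foxj1 0.31 and 1.74 and Ovgp1 0.94 and 0.22. The defining genes of those epithelia were therefore near 0 in library 1, and Pax8 was above that in library 2.

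The genes most like each of the 8 over the 10 sums, by Pearson's r of log2 levels across 5 types and 2 libraries, were Flrt1 (r = 0.996) and Myrf for Krt7, and Rspo1 (r = 0.996) and Sulf1 for Krt8. For Krt18 they were Sulf1 (r = 0.992) and Rspo1, so the neighbouring pair shared its nearest genes. Lgals2 (r = 0.984) and Tspan8 were nearest to Krt19, Nfe2l3 (r = 0.990) and Bsg to Upk1b, and Tm4sf5 (r = 0.991) and 2900011O08Rik to Upk3b. Tm4sf5 (r = 0.998) and Irf5 were nearest to Msln, and Mycbpap (r = 0.997) and Tm4sf5 to Muc16. Tm4sf5, a tetraspanin-like membrane protein, was thus among the nearest for 3 of the surface genes. The 10 sums share libraries and the same few mesothelial cells, so these values describe likeness and have no test.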

How the data were processed

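Whole-ovary cells of 2 libraries were read from the deposited matrices. These hold the authors' raw UMI counts, made per the labels with Cell Ranger 3.0.2 against GRCm38, for barcodes called as cells. The labels name version v2 of the 3′ kit and the methods v3. Cells were dropped below 500 detected genes or above 10% mitochondrial UMIs. Scrublet in scanpy 1.11.5 then removed 96 and 93 likely doublets at the automatic threshold of library 1, since that of library 2 marked 2 cells. A cell passed a gate with at least 2 UMIs and at least 2 UMIs per 10000 (5 for the interstitial and germ gates). Leiden clustering (2000 variable genes without the 8 genes and gate genes, 30 components, 15 neighbours, resolution 1) gave 22 clusters, each given the type of over 50% of its gated cells where it had at least 10. By exceptions made after the gates had been seen, the cluster with the mesothelial-gated cells is the surface cluster, and a cluster whose median UMI count was over 3 times below that of all kept cells has no type.

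Sums per library and type were compared in R 4.3.3 by edgeR 4.0.16 (filterByExpr, TMM, glmQLFit, glmQLFTest), which was tested on simulated data, with DESeq2 1.42.0 as an alternative. Types of a library come from the same animals and droplet run, which pairs sums by library, and their deviations correlated by -0.00434 to 0.279 over 14787 genes. The samples are biological replicates per the labels, and each is a pool of pups per the paper's methods. The p-values therefore measure the spread between 2 pools. Positions are from GENCODE M21. Named genes were the 8, the gate and check genes, the 2 genes most similar to each of the 8, and at most 4 genes per list with the largest difference past the threshold. Other genes of the lists were named after their values were seen. The genes, lists and tests were chosen with earlier results of these data known.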

Additional observations from a re-analysis of the deposited data

Results flagged for a closer look

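Cells that passed no gate, 229 in library 1 and 392 in library 2, enter no comparison, yet they held more UMIs of 7 of the 8 genes than any gated type. These cells had 5148 UMIs of Krt18, 3056 of Krt8, 3159 of Krt19 and 944 of Krt7 over both libraries. They had 2428 UMIs of Upk3b, 322 of Msln, 310 of Muc16 and 150 of Upk1b. Each value is above the 3 UMIs that a count of 0 allows in either library, and Krt8 is the exception to the comparison with gated types, since granulosa cells had 3705 UMIs of it. Between 89.3% (Krt8) and 99.3% (Upk1b) of these UMIs lay in the 272 of these cells that belong to the surface cluster.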

How the results depend on the processing

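The mesothelial comparisons rest on 10 and 24 cells, so counts of called genes moved with depth and typing. With cells thinned to 2000 UMIs, clusters with the surface cluster as mesothelial, and other gate thresholds, genes called in either direction numbered 250, 2606 and 2594 in place of 1044 against the mean of 4 types, 282, 2229 and 2299 in place of 715 against granulosa, 558, 3431 and 3215 in place of 1415 against interstitial, and 418, 2644 and 2639 in place of 1562 against endothelial cells. Against germ cells thinning gave 2040 and clusters 8318 in place of 5459. Against granulosa cells, cells past several gates assigned to 1 gate gave 417 and no filter on low counts 1158. Thinning left 7 of the 8 genes to test, of which 5 were called against endothelial cells and 6 in each other mesothelial comparison.

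For granulosa cells against 3 types, thinning gave 2253 genes in place of 4077 and 5 of the 8 (7 tested), and other gate thresholds 3 of the 8 in place of 7. Upk1b there turned from 1.88 to -0.78 with other gate thresholds and to -0.16 in gated cells whose cluster had the same type, in neither case called. In Amh/Inhbb-positive cells, 4 of the 8 were called with thinning, 2 with clusters, 4 with matching clusters, 7 with no filter on low counts, 6 with the replicate block and 2 with DESeq2 in place of 1, and 369 genes (thinning) and 1354 (no filter) in place of 835. In Lgr5-positive cells, 2 of the 8 were called with thinning, 8 with no filter, 8 with the replicate block and 4 with DESeq2 in place of 0. Genes called there numbered 46 with at least 3 gate UMIs, 25 with thinning, 602 with no filter, 553 with the block and 177 with DESeq2 in place of 2, 0 with clusters, and 1 each with several gates assigned, other thresholds, matching clusters and library size only.

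Without 1 mesothelial sum, genes called ranged from 213 to 584 (mean of 4), 89 to 313 (granulosa), 362 to 732 (interstitial), 3205 to 4678 (germ) and 567 to 1082 (endothelial), and 1 to 5 of the 8 were called against granulosa cells. Without 1 Amh/Inhbb-positive sum, 0 to 3 of the 8 and 177 to 366 genes were called, and without 1 Lgr5-positive sum 0 genes. The replicate block changed no other count of calls by over 1.5 times. Clusters typed by majority alone left no mesothelial type, so those comparisons had no value, and that alternative was not run for subsets of granulosa cells. The surface cluster as mesothelial, the other gate thresholds, matching clusters and the leaving out of single sums were chosen after seeing the data. The cause of these changes was not tested.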
